A study of Mus musculus with 6 samples.

Results

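Glycolysis and the tricarboxylic acid cycle were followed through 47 genes, picked by gene symbol from the 24421 genes of the deposited count table. The list held the glucose transporter Slc2a1, hexokinases, the enzymes from glucose 6-phosphate to pyruvate, lactate dehydrogenases and lactate transporters, pyruvate dehydrogenase and its kinases, and the enzymes of the cycle. All 47 symbols were present and 46 had enough reads to be tested, the exception being Eno1. RNA came from whole prostates of C57BL/6 mice at 52 weeks of age. The knockout group had 3 libraries, labelled p62FSP1KO, from mice with floxed p62 alleles and the FSP1-Cre transgene (FSP1 is a fibroblast marker, the product of S100a4). The control group had 3 libraries from p62f/f mice, labelled wild type, so the floxed alleles were shared by both groups and only the Cre differed. The labels place the deletion in the stroma, and they name no tumour model and no treatment. A Cre driven from S100a4 is also known to act in some leukocytes and other non-fibroblast cells, and whole-organ RNA does not separate stroma from epithelium.

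Glycolysis begins when a hexokinase phosphorylates glucose and so traps it in the cell. HK1 is the widely expressed form, and HK2 is the inducible form of muscle, fat and many tumours. Pyruvate is then reduced to lactate or enters the mitochondrion, where pyruvate dehydrogenase makes acetyl-CoA and citrate synthase joins it to oxaloacetate. The normal prostate epithelium is known for letting citrate leave this cycle: its oxidation is held low, and it is secreted into the prostatic fluid. Citrate that is not secreted can be oxidised further in the cycle, or exported to the cytosol and cleaved for lipid synthesis.

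Total counts ranged from 14761703 to 26910053 in knockout libraries and from 12826463 to 20011908 in control libraries. Defining markers of prostate epithelium were present in all 6, with luminal markers summing to 4903 to 5214 CPM (read counts per library size, scaled by TMM factors) in knockouts and 2704 to 4373 CPM in controls, and 6 seminal vesicle markers summed to at most 2.48 CPM in any library. Control 3 stood apart: its 4 dorsolateral and anterior secretory markers summed to 1043 CPM, against 169574 and 234737 CPM in the other 2 controls and 266207 to 322313 CPM in knockouts. Outside control 3, most of this sum came from 9530053A07Rik, which ranged from 127810 CPM (control 1) to 256937 CPM (knockout 3). Msmb, 1 of these 4, went the other way. Control 3 held the most Msmb (346 CPM), followed by control 2 (311 CPM), while control 1 had 1.27 CPM. Knockout 1, 2 and 3 had 1.20, 0.497 and 0.077 CPM of Msmb, which was called lower (edgeR adjusted p = 0.0461). The 6 adipocyte markers of control 3 summed to 1094 CPM, against at most 63.7 CPM in any other library. Sqstm1, which encodes p62, was at 541, 387 and 462 CPM in knockout 1, 2 and 3 and at 360, 409 and 295 CPM in control 1, 2 and 3 (log2 fold change 0.39 ± 0.23 SE, edgeR adjusted p = 0.355), so whole-organ RNA does not check a deletion confined to stromal cells. The titles give each library a number of its own but do not say that libraries came from separate animals, so the p-values reflect sample-to-sample spread, which may be technical.

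Hk2 had the largest difference of the tested members, so the sequences behind its measurement come first. Reads were 75 bases long, and the most alike 75-base stretch of the Hk2 and Hk1 coding sequences is shown because a read that fitted both genes could be counted for either. The capitals mark the 7 bases that differ, the stretches cover coding bases 871 to 945 of Hk2 (chromosome 6) and 883 to 957 of Hk1 (chromosome 10), and the sequences are from GENCODE M21 transcripts on GRCm38.
Hk2: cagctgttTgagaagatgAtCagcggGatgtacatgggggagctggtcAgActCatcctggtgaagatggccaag
Hk1: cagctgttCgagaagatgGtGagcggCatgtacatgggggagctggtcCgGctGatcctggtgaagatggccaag
Over 2746 aligned coding bases the pair was 71.2% identical. No 75-base stretch of Hk2 was found in a transcript of any other gene (0 of 5439 stretches), and 1.97% of those of Hk1 were, all with its antisense neighbour Hk1os.

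The promoters of the 3 genes of glucose handling that were called lower in knockouts are shown next, Hk2, Slc2a12 and Slc37a4. Each is 250 bases before to 50 after the RefSeq start on GRCm38.p6, written on the strand of the gene. Capitals mark matches, on either strand, to TGACGT (the core of a cyclic AMP response element), TTGCATCA (a C/EBP-ATF composite element), CCAAT (the CCAAT box) and ACGTG (the core of a hypoxia response element).
Hk2 (chr6:82774405-82774704, minus strand): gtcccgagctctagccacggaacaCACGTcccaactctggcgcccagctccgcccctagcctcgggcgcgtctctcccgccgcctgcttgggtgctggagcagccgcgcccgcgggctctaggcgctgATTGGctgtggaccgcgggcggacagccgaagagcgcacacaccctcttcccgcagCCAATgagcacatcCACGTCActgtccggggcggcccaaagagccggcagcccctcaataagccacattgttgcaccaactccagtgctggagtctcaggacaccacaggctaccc
Slc2a12 (chr10:22644761-22645060, plus strand): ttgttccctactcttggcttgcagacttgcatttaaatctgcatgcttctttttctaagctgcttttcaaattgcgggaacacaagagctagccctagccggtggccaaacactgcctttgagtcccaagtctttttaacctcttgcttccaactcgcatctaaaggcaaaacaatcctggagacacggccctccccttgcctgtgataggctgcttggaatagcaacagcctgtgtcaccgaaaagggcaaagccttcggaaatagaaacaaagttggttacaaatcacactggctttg
Slc37a4 (chr9:44396696-44396995, plus strand): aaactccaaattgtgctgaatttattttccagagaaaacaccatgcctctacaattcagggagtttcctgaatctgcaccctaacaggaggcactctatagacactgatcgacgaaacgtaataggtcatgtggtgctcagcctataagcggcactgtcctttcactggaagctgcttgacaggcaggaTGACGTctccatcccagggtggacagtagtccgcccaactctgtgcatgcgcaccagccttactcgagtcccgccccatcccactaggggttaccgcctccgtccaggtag
The Hk2 window held 1 match to TGACGT, 2 to CCAAT and 2 to ACGTG, and 1 of the ACGTG matches overlapped the TGACGT match, which begins 51 bases before the start. The Slc37a4 window held 1 match to TGACGT, 61 bases before the start, and the Slc2a12 window held none of the 4 motifs. TTGCATCA was in none of the 3 windows. Among 32851 promoters of the same length, 7.51% held TGACGT, 0.895% TTGCATCA, 37.4% CCAAT and 19.6% ACGTG. RefSeq lists 3 promoters for Slc37a4, and the entry listed ahead of the others is shown.

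Hk2 fell in knockout prostates to a level of a few CPM. It lies on chromosome 6 from 82725025 to 82774454 on the minus strand. Its level was 2.03, 2.28 and 4.18 CPM in knockout 1, 2 and 3, against 110, 122 and 199 CPM in control 1, 2 and 3. Every knockout lay far below every control, on 27, 55 and 109 reads in knockouts against 2244, 1912 and 2905 reads in controls. The mean was 2.83 ± 1.17 CPM in knockouts and 143 ± 48.2 CPM in controls (SD, n = 3 each), a 49.8-fold lower level (log2 fold change -5.64 ± 0.40 SE). The edgeR quasi-likelihood test gave an adjusted p of 7.07e-04 over all 13762 tested genes. Hk2 was the only member past the threshold of 0.05. In the same fit 5.07% of all tested genes passed, 0.414% higher and 4.66% lower in knockouts, so 1 of 46 members (2.17%) is no larger a share than that of all genes.

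Hk1, the other hexokinase among the members, was at 34.9, 53.0 and 61.5 CPM in knockouts and at 63.2, 68.7 and 71.8 CPM in controls. The groups did not overlap, but the difference did not pass the test (log2 fold change -0.45 ± 0.22 SE, edgeR adjusted p = 0.286). Hk3, the hexokinase best known from leukocytes, was at 0.451, 1.41 and 2.49 CPM in knockouts and at 1.02, 1.09 and 1.98 CPM in controls (adjusted p = 0.915). Hkdc1, a further hexokinase-like gene, was at 0, 0.041 and 0.115 CPM in knockouts and had no read in controls, and it was too low to be tested.

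The makeup of hexokinase RNA was therefore set beside its total. Per length (CPM per kb of exon), Hk2 gave 7.12, 5.46 and 8.13% of the summed hexokinase level in knockouts and 70.5, 71.0 and 78.7% in controls. The share averaged 6.90 ± 1.35% in knockouts and 73.4 ± 4.62% in controls (SD, n = 3 each), a difference of -66.5 percentage points. A two-sided exact permutation test gave p = 0.1, the smallest that 3 against 3 libraries allow, and 0.24 when adjusted over 12 isozyme families. In reads, Hk2 made up 27 of 506 hexokinase reads in knockout 1 (5.34%, exact 95% interval 3.55 to 7.67%), and 4.02% and 6.11% in knockout 2 and 3. In controls its share of reads was 63.0% (61.4 to 64.6%), 63.6% and 72.9%. The summed hexokinase level was 6.79 ± 1.93 CPM per kb in knockouts and 32.4 ± 8.67 CPM per kb in controls. Hk2 ranked 45 of 46 members by level per kb in knockouts and 20 in controls.

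Among the 7 genes that bring glucose into the cell or release it, 2 passed the test, both lower in knockouts, beside 4.66% of all tested genes called lower. Slc2a12 encodes GLUT12, a facilitative glucose transporter, and lies on chromosome 10 from 22645011 to 22704285 on the plus strand. It was at 1.43, 3.44 and 1.61 CPM in knockouts, against 131, 72.5 and 254 CPM in controls. The groups stood far apart, and Slc2a12 fell 69.2-fold (log2 fold change -6.11 ± 0.61 SE, edgeR adjusted p = 0.00229). Slc37a4, the transporter that carries glucose 6-phosphate into the endoplasmic reticulum, was at 13.6, 14.0 and 12.7 CPM in knockouts and at 32.4, 32.4 and 50.2 CPM in controls. It fell 2.85-fold (log2 fold change -1.51 ± 0.23 SE, edgeR adjusted p = 0.0105), a call lost without knockout 2 (adjusted p = 0.0557) or without knockout 3 (adjusted p = 0.0584). All 7 tested genes of the glucose entry and release list were below control on the log2 scale, as were 6552 of all 13762 tested genes. The other 5 (Slc2a3, Slc2a4, Slc2a8, Slc5a1 and G6pc3) did not pass the test. Slc2a3 and Slc2a4 had the opposite sign in 2 and 4 of 15 alternative settings. Of the 75-base stretches of Slc2a12, 8.14% are shared with Tbpl1.

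**Figure D1:**
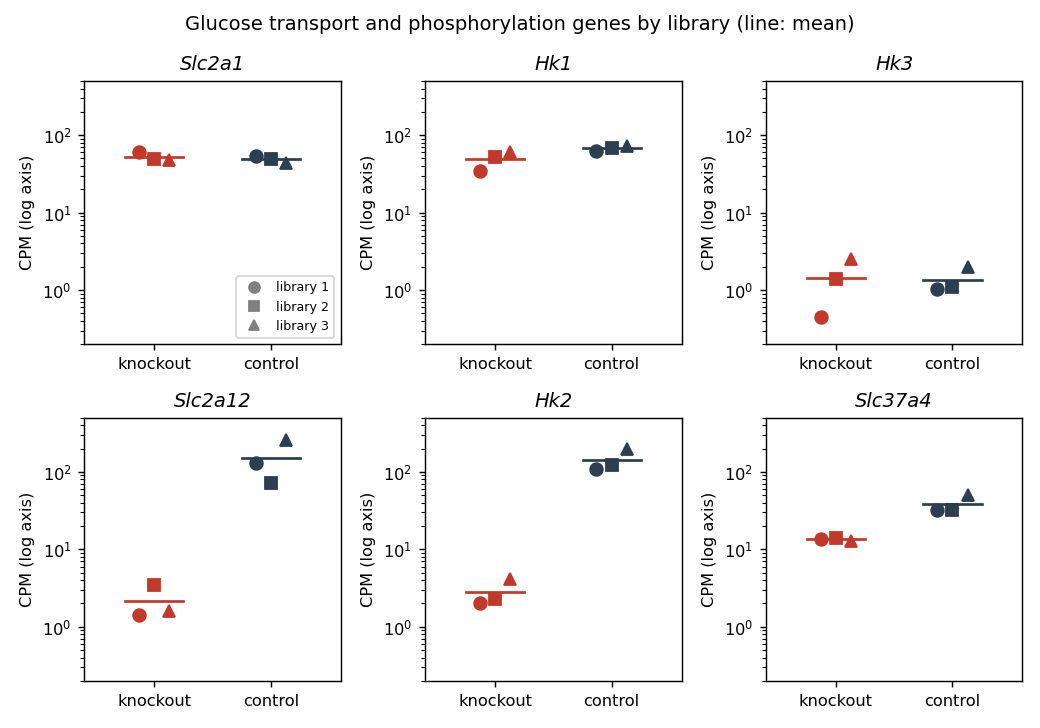
Levels of hexokinase and glucose-entry genes in each library, with knockout libraries left of control libraries; the vertical axis is TMM-scaled CPM on a log scale and each point is 1 library. Short lines are group means. Hk2 is at 2.03 to 4.18 CPM in knockouts and 110 to 199 CPM in controls, with a wide gap for Slc2a12 too, while Slc2a1 overlaps.

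Slc2a1, which encodes GLUT1, the basal glucose transporter of most cells, had overlapping groups. It was at 60.7, 49.3 and 48.0 CPM in knockouts and at 54.2, 48.8 and 43.6 CPM in controls (log2 fold change 0.11 ± 0.17 SE, edgeR adjusted p = 0.733). Slc2a1 supplied 71.5 ± 6.33% of the summed per-length level of 5 glucose transporter genes in knockouts and 27.9 ± 11.5% in controls, with no overlap (exact permutation p = 0.1, adjusted 0.24). The summed transporter level was 21.0 ± 0.89 CPM per kb in knockouts and 56.0 ± 22.1 CPM per kb in controls. The sum held Slc2a1, Slc2a3, Slc2a4, Slc2a8 and Slc2a12. Of these, Slc2a12 was at 0.510 ± 0.263 CPM per kb in knockouts and 36.0 ± 21.9 CPM per kb in controls. Slc5a1, a glucose-entry gene left out of this sum, was at 23.9 ± 1.92 CPM per kb in knockouts and 27.4 ± 4.80 CPM per kb in controls.

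Markers of other cells were set beside these genes. The ventral-type secretory markers Sbp, Sbpl and Spink1 summed to 91.7, 18.1 and 3.03 CPM in knockout 1, 2 and 3 and to 65399.5, 49129 and 164610 CPM in control 1, 2 and 3, and all 3 were called lower. Control 3 was the highest library for these markers, for Hk2 and for Slc2a12, as it was for 26.2% of all tested genes. In RNA from a whole organ, fewer cells of a type and less RNA per cell cannot be told apart, and the part of this marker difference in the fall of Hk2, Slc2a12 and Slc37a4 was not tested. HK2 is also a muscle and fat enzyme: 8 skeletal muscle markers summed to 57.5, 84.9 and 106 CPM in knockouts and to 92.4, 84.3 and 63.3 CPM in controls, and the adipocyte markers to 11.9, 4.44 and 63.7 CPM in knockouts and to 28.0, 24.7 and 1094 CPM in controls, so both sums overlapped between groups. Of the 6 muscle markers tested, 2 fell, both myosin heavy chains of fast muscle. Myh1 was at 0.376, 0 and 0.077 CPM in knockouts and at 6.73, 5.24 and 5.74 CPM in controls (log2 fold change -5.54 ± 0.82 SE, edgeR adjusted p = 0.00981), and Myh2 at 0.751, 0.041 and 0.306 CPM in knockouts and at 6.64, 9.32 and 11.3 CPM in controls (log2 fold change -4.76 ± 0.73 SE, adjusted p = 0.0110). The other 4 did not pass, among them Ckm, the muscle creatine kinase, at 3.16, 9.70 and 6.70 CPM in knockouts and at 2.44, 3.06 and 0.137 CPM in controls, and the part of muscle RNA in the Hk2 difference was not tested. Hk2 passed the test with each library left out in turn, with log2 fold changes of -6.04 to -5.32 and a highest adjusted p of 0.00828, so no single library carried it.

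**Figure D2:**
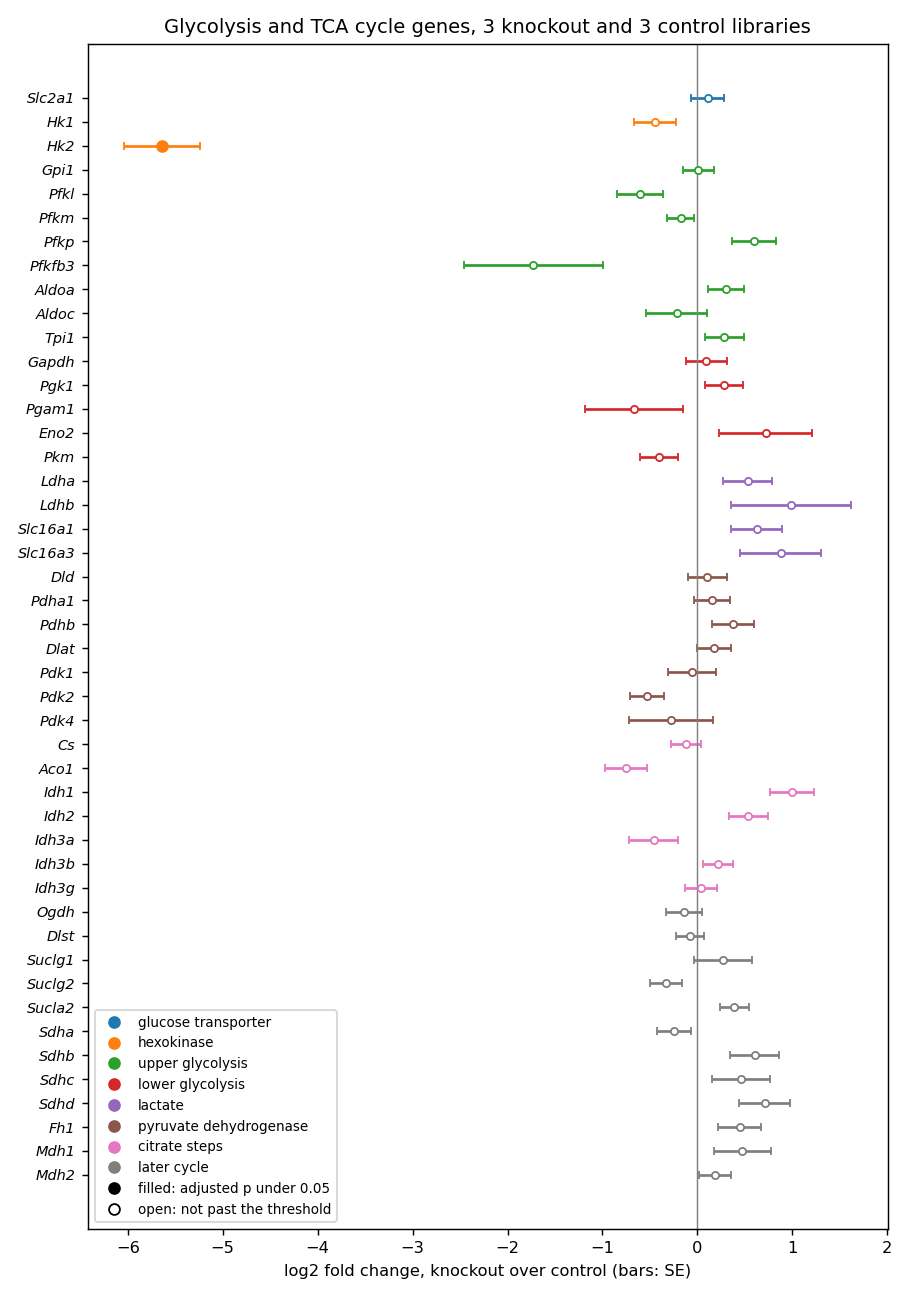
Log2 fold change of knockout over control for the 46 tested members, ordered by role, with bars of 1 standard error. Hk2 stands alone at -5.64, and the rest lie between -1.73 (Pfkfb3) and 1.00 (Idh1).

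The enzymes of upper glycolysis, which turn glucose 6-phosphate into triose phosphates, gave 0 calls among 8 genes, with 4 log2 fold changes above 0 and 4 below (3 above 0 when scaled by library size only). Gpi1, which makes fructose 6-phosphate, was at 171, 186 and 179 CPM in knockouts and at 189, 156 and 186 CPM in controls. Phosphofructokinase commits sugar to glycolysis, and its 3 genes went different ways without passing the test. The liver-type Pfkl was at 39.0, 41.2 and 46.6 CPM in knockouts and at 57.3, 47.1 and 88.6 CPM in controls (log2 fold change -0.60 ± 0.25 SE, edgeR adjusted p = 0.208). The platelet-type Pfkp was at 13.5, 15.2 and 18.9 CPM in knockouts and at 8.69, 11.9 and 10.9 CPM in controls (log2 fold change 0.60 ± 0.23 SE, adjusted p = 0.194). Both had groups that did not overlap, which was the case for 14.1% of all tested genes on the higher side and 18.3% on the lower side. The muscle-type Pfkm was at 39.9 to 42.9 CPM in knockouts and 45.6 to 49.0 CPM in controls (adjusted p = 0.479).

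Pfkfb3, which makes the phosphofructokinase activator fructose 2,6-bisphosphate, had 1 library far above the rest. It was at 3.91, 8.46 and 8.81 CPM in knockouts and at 10.5, 7.72 and 52.7 CPM in controls, so only control 3 was high. Its log2 fold change was -1.73 ± 0.73 SE (edgeR adjusted p = 0.220) and was -0.36 without control 3 (adjusted p = 0.668). Aldoa, the main aldolase, was at 371 to 394 CPM in knockouts and 274 to 338 CPM in controls (log2 fold change 0.30 ± 0.19 SE, adjusted p = 0.373). Aldoc, the aldolase best known from brain, was at 7.84 to 10.3 CPM in knockouts and 6.19 to 12.9 CPM in controls. Tpi1, which interconverts the triose phosphates, was at 218 to 297 CPM in knockouts and 181 to 232 CPM in controls.

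Lower glycolysis, from glyceraldehyde 3-phosphate to pyruvate, also gave no call among its 5 tested genes. Several of these genes have processed pseudogenes whose reads could be split by the counting. Gapdh was at 80.6 to 101 CPM in knockouts and 65.5 to 107 CPM in controls, and 22.8% of its 75-base stretches occur in transcripts of 114 other genes. Pgk1, phosphoglycerate kinase, was at 71.0 to 82.1 CPM in knockouts and 50.6 to 78.0 CPM in controls, with 67.5% of stretches shared. Pgam1, phosphoglycerate mutase, was at 4.36 to 11.8 CPM in knockouts and 5.68 to 20.6 CPM in controls, with 40.6% shared. These 3 levels are therefore uncertain. Among the other tested members, shared stretches also limit the levels of Pkm (19.6%), Ldhb (16.7%), Suclg2 (16%) and Pdha1 (13.9%).

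Eno1, the main enolase, was listed at 0 in all 6 libraries, and 64.2% of its stretches are shared with its near copy Eno1b. Eno1b held 50, 80 and 2 reads in knockouts and 132, 82 and 44 reads in controls, so enolase 1 could not be measured here. Eno2, the enolase of neurons, was at 2.24 to 3.23 CPM in knockouts and 0.927 to 2.81 CPM in controls (adjusted p = 0.414). Pkm, pyruvate kinase, was at 255, 235 and 299 CPM in knockouts and at 324, 328 and 391 CPM in controls (log2 fold change -0.41 ± 0.20 SE, edgeR adjusted p = 0.273). The Pkm groups did not overlap, and gene-level counts do not separate the M1 and M2 splice forms.

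The 4 genes of lactate handling all had log2 fold changes above 0, from 0.53 to 0.99, and none passed the test. Ldha, the lactate dehydrogenase subunit that favours lactate formation, was at 595, 486 and 548 CPM in knockouts and at 454, 404 and 269 CPM in controls (log2 fold change 0.53 ± 0.26 SE, edgeR adjusted p = 0.272). Ldhb, the subunit that favours pyruvate formation, was at 60.0, 34.7 and 46.2 CPM in knockouts and at 29.1, 37.3 and 4.44 CPM in controls. Its low value in control 3 set the size of the difference, which was 0.99 ± 0.63 SE on the log2 scale with all libraries and 0.50 without control 3. Slc16a1, which encodes the lactate transporter MCT1, was at 9.24 to 11.1 CPM in knockouts and 4.68 to 7.72 CPM in controls (log2 fold change 0.62 ± 0.27 SE, adjusted p = 0.227). Slc16a3, which encodes the lactate exporter MCT4, was at 0.746 to 0.902 CPM in knockouts and 0.383 to 0.537 CPM in controls (log2 fold change 0.88 ± 0.43 SE, adjusted p = 0.272). Knockout 1 was the highest of the 6 libraries for all 4 genes.

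Pyruvate dehydrogenase, the gate from pyruvate to acetyl-CoA, had no subunit past the test. Pdha1, the catalytic alpha subunit, was at 236 to 290 CPM in knockouts and 211 to 258 CPM in controls. Pdhb, the beta subunit, was at 83.2 to 134.9 CPM in knockouts and 75.9 to 79.9 CPM in controls, with no overlap (log2 fold change 0.38 ± 0.22 SE, edgeR adjusted p = 0.346). Dlat, the acetyltransferase core, was at 38.8 to 49.8 CPM in knockouts and 34.9 to 46.8 CPM in controls. Dld, the dehydrogenase shared with the 2-oxoglutarate complex, was at 88.4 to 138 CPM in knockouts and 94.5 to 108 CPM in controls.

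The kinases that switch pyruvate dehydrogenase off were led by Pdk2. Pdk2 was at 44.9, 57.8 and 53.9 CPM in knockouts and at 67.2, 71.6 and 87.7 CPM in controls, without overlap (log2 fold change -0.53 ± 0.18 SE, edgeR adjusted p = 0.148). Pdk1, the kinase induced by hypoxia, was at 27.4, 37.8 and 26.9 CPM in knockouts and at 38.5, 34.7 and 22.5 CPM in controls (adjusted p = 0.914). Pdk4, the kinase induced by fasting, was at 3.01, 3.73 and 2.26 CPM in knockouts and at 2.59, 2.43 and 5.95 CPM in controls (adjusted p = 0.731). The kinase genes, Pdk3 included, summed to 30.5 ± 2.19 CPM per kb in knockouts and 40.5 ± 1.88 CPM per kb in controls, and Pdk4 gave 2.80 ± 0.66% of that level in knockouts and 2.53 ± 1.26% in controls. Pdp2, the phosphatase that switches the complex back on and no member, was at 12.6, 21.1 and 24.3 CPM in knockouts and at 32.8, 39.8 and 44.1 CPM in controls (log2 fold change -1.01 ± 0.27 SE, adjusted p = 0.0828).

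Citrate synthesis and the steps after it gave no call. Cs, citrate synthase, was at 119, 140 and 142 CPM in knockouts and at 145, 144 and 148 CPM in controls (log2 fold change -0.12 ± 0.16 SE, edgeR adjusted p = 0.677), so the knockouts lay below the controls by a margin that did not pass the test.

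Both cytosolic enzymes of this stretch, Aco1 and Idh1, had groups that did not overlap, in opposite directions, and neither passed the edgeR test. Over all tested genes, 14.1% lacked overlap on the higher side and 18.3% on the lower side. Aco1, the cytosolic aconitase that doubles as iron regulatory protein 1, was at 26.4, 29.8 and 35.0 CPM in knockouts and at 42.5, 45.4 and 65.9 CPM in controls (log2 fold change -0.75 ± 0.22 SE, edgeR adjusted p = 0.106). Idh1, the cytosolic NADP-dependent isocitrate dehydrogenase, lies on chromosome 1 from 65158616 to 65186500 on the minus strand. It was at 136, 130 and 132 CPM in knockouts and at 83.8, 70.4 and 45.7 CPM in controls. All 3 knockouts were close together and above every control, while control 3 was the lowest. The mean was 133 ± 3.09 CPM in knockouts and 66.6 ± 19.3 CPM in controls (SD, n = 3 each).

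The Idh1 difference lay at the edge of the threshold and its call depended on the method. edgeR gave a log2 fold change of 1.00 ± 0.23 SE and an adjusted p of 0.0565. DESeq2 gave an adjusted p of 0.00285 and edgeR with upper-quartile factors 0.0451. Leaving out control 3 and knockout 1 together gave a log2 fold change of 0.77 and an adjusted p of 0.0212. Leaving out single libraries gave adjusted p-values of 0.0629 to 0.160, none of them past the threshold.

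Idh2, the mitochondrial NADP-dependent form, was at 88.2, 67.0 and 82.3 CPM in knockouts and at 61.4, 60.4 and 41.7 CPM in controls (log2 fold change 0.54 ± 0.21 SE, edgeR adjusted p = 0.191). Of the NAD-dependent enzyme that drives the cycle forward, the catalytic Idh3a was at 21.8, 22.6 and 24.5 CPM in knockouts and at 29.8, 21.6 and 43.5 CPM in controls (adjusted p = 0.335). Idh3b was at 106, 100 and 87.7 CPM in knockouts and at 91.2, 84.3 and 77.4 CPM in controls. Idh3g was at 69.9, 71.3 and 63.1 CPM in knockouts and at 75.1, 55.7 and 67.8 CPM in controls, so the regulatory subunits overlapped between groups.

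Export and cleavage of citrate were measured by 2 genes outside the list. Slc25a1, the mitochondrial citrate carrier, was at 56.0, 71.5 and 67.7 CPM in knockouts and at 63.1, 60.0 and 73.7 CPM in controls (log2 fold change -0.01 ± 0.17 SE, edgeR adjusted p = 0.975). Acly, which cleaves cytosolic citrate into acetyl-CoA, was at 114, 145 and 176 CPM in knockouts and at 167, 164 and 176 CPM in controls (log2 fold change -0.22 ± 0.20 SE, adjusted p = 0.533). Per length, Slc25a1 stood at 1.30 ± 0.06 times Cs in knockouts and 1.20 ± 0.11 times Cs in controls.

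Set side by side, genes of citrate production and of citrate use had similar medians in both groups. Each gene was set on a log2 scale against its own mean over all libraries. Over 9 genes of citrate production the median was 0.14, 0.00 and -0.11 in knockouts and 0.01, -0.12 and -0.04 in controls. Over 9 genes of citrate use it was -0.22, 0.09 and 0.06 in knockouts and 0.11, -0.11 and 0.02 in controls. With TMM factors the group difference was 0.06 for production and -0.03 for use, both smaller than the SD among libraries of either group. This depended on the scaling. With upper-quartile factors the production difference was 0.105, above the SD of knockouts (0.093) and of controls (0.065).

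**Figure D3:**
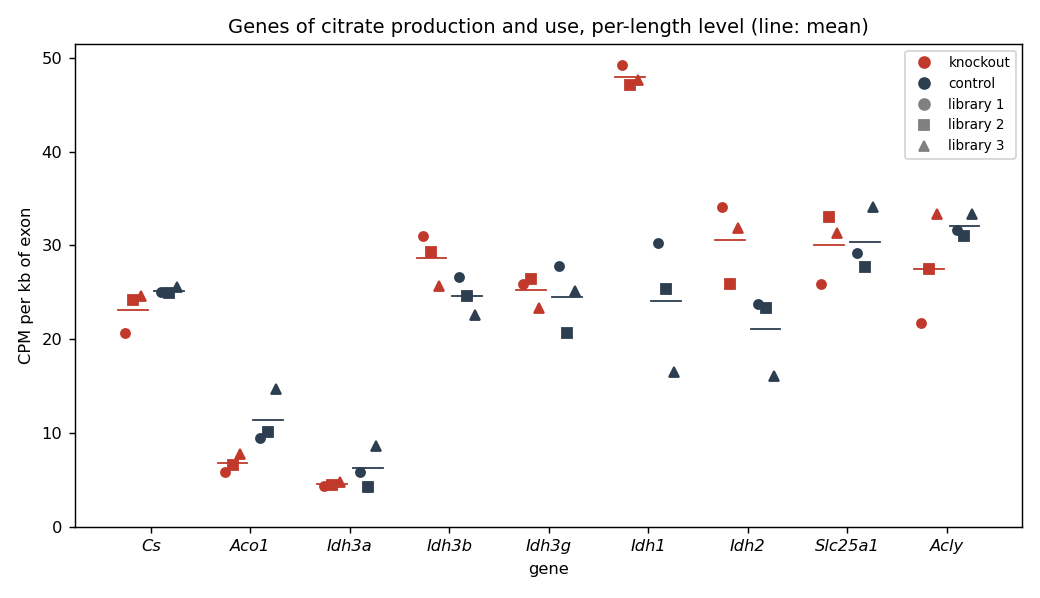
Per-length level (CPM per kb of exon, vertical axis) of citrate synthase, Aco1, isocitrate dehydrogenases, the citrate carrier and Acly, with 1 point per library, group means as lines and knockouts left of controls. The 3 knockout points of Idh1 sit together above every control point, those of Aco1 sit below every control point, those of Cs lie just below the controls, and Slc25a1 and Acly overlap.

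After isocitrate, the 12 genes of the later cycle gave no call, with 8 log2 fold changes above 0 and a median of 0.33. Ogdh, the dehydrogenase subunit of the 2-oxoglutarate complex, was at 138 to 196 CPM in knockouts and 179 to 198 CPM in controls. Dlst, the succinyltransferase of that complex, was at 67.0 to 73.8 CPM in knockouts and 69.5 to 78.6 CPM in controls. Succinyl-CoA synthetase makes GTP or ATP according to its beta subunit, and here the pair parted. The ATP-forming Sucla2 was at 118, 108 and 101 CPM in knockouts and at 86.4, 80.0 and 83.4 CPM in controls (log2 fold change 0.39 ± 0.15 SE, edgeR adjusted p = 0.193). The GTP-forming Suclg2 was at 30.7, 35.3 and 32.7 CPM in knockouts and at 42.8, 35.4 and 46.1 CPM in controls (log2 fold change -0.33 ± 0.17 SE, adjusted p = 0.285).

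Succinate dehydrogenase, which also serves as complex II of the respiratory chain, showed no common direction. Its flavoprotein gene Sdha was at 210 to 240 CPM in knockouts and 247 to 293 CPM in controls (log2 fold change -0.24 ± 0.18 SE, edgeR adjusted p = 0.438). Sdhb, the iron-sulphur subunit, was at 164, 95.02 and 93.3 CPM in knockouts and at 74.1, 89.7 and 68.1 CPM in controls (adjusted p = 0.226). Sdhd, a membrane anchor, was at 154, 122 and 97.6 CPM in knockouts and at 92.9, 83.3 and 52.1 CPM in controls (log2 fold change 0.71 ± 0.27 SE, adjusted p = 0.184). The groups of these 3 genes did not overlap, and none of the 3 passed the test. Such a lack of overlap was found for 14.1% of all tested genes on the higher side and 18.3% on the lower side. Sdhc, the other anchor, was at 209, 110 and 119 CPM in knockouts and at 94.4, 139 and 85.9 CPM in controls, so knockout 1 stood alone.

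The same library was far above the rest for several other cycle genes. Mdh1, the cytosolic malate dehydrogenase, was at 733, 369 and 393 CPM in knockouts and at 345, 384 and 349 CPM in controls. Its log2 fold change was 0.47 ± 0.30 SE and was 0.09 without knockout 1. Suclg1, the alpha subunit of succinyl-CoA synthetase, was at 150, 71.7 and 76.7 CPM in knockouts and at 68.0, 90.0 and 89.6 CPM in controls, and its log2 fold change turned from 0.27 to -0.15 without knockout 1. Fh1, fumarase, was at 72.9 to 113 CPM in knockouts and 53.5 to 80.6 CPM in controls. Mdh2, the mitochondrial malate dehydrogenase, was at 134.2 to 170 CPM in knockouts and 128 to 136 CPM in controls.

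Over the 46 tested members, knockout 1 was the highest library for 21 (45.7%), against 29.6% of all tested genes. In the 19 cycle genes it was highest for 11 (57.9%), and control 3 was lowest for 7 (36.8%), against 26.9% of all tested genes. The median relative log2 level of the later cycle was 0.44, -0.06 and -0.01 in knockout 1, 2 and 3 and -0.04, -0.06 and -0.15 in control 1, 2 and 3. That of the 4 lactate genes was 0.48, 0.23 and 0.36 in knockouts and -0.06, -0.10 and -0.60 in controls. The later-cycle median was thus high in knockout 1 alone, and the lactate median was lowest in control 3.

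**Figure D4:**
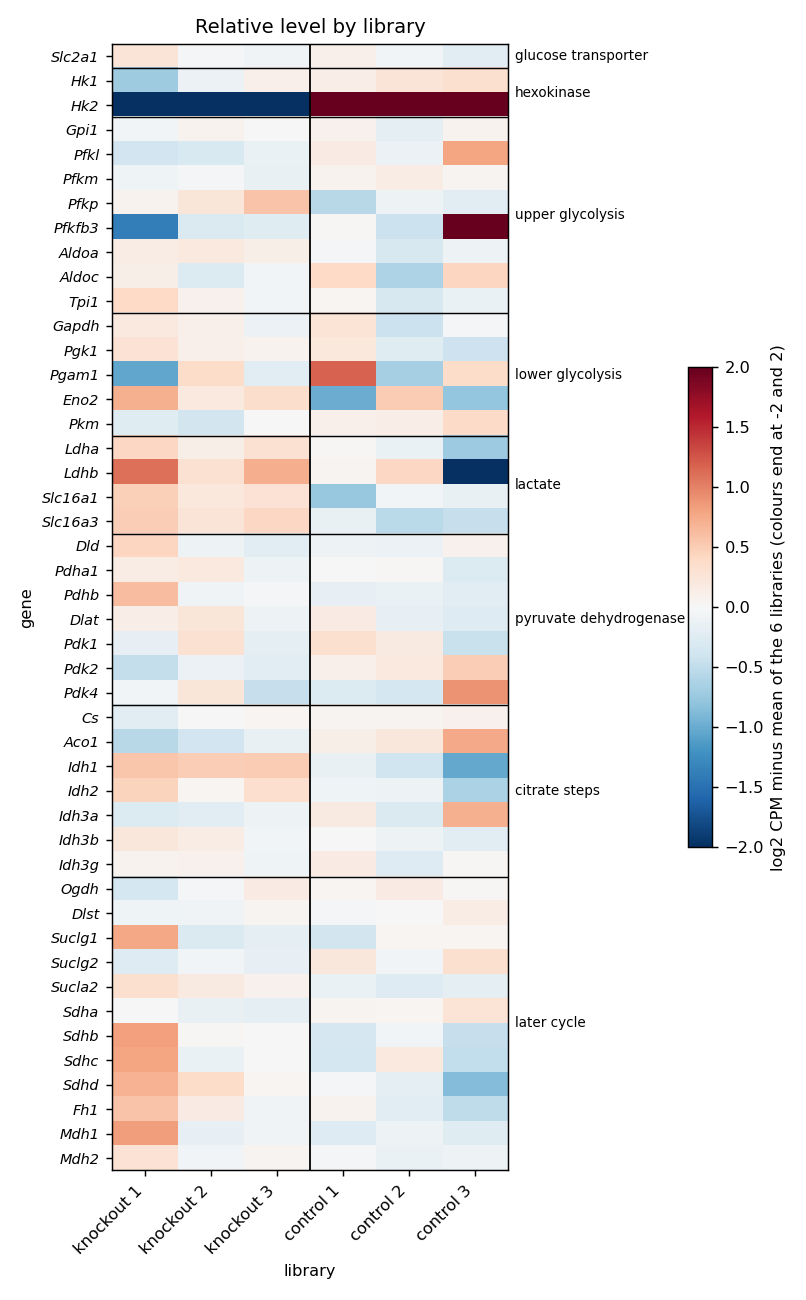
Relative log2 level of each member in each library (against the mean of the 6 libraries), members grouped by role, knockout columns left of control columns, red above the mean and blue below. Hk2 is low in all 3 knockouts, and 8 of the 12 later cycle genes are highest in knockout 1, while 3 (Ogdh, Dlst and Suclg2) are lowest there.

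Among all members, 21 of 46 had groups that did not overlap, 11 higher (23.9%) and 10 lower (21.7%) in knockouts, beside 14.1% and 18.3% of all tested genes. An unadjusted p under 0.05 was reached by 11 members (23.9%), beside 22.1% of all tested genes. There were 28 positive and 18 negative log2 fold changes, with a median of 0.13 beside 0.03 over all tested genes. When scaled by library size only the count was 23 and 23, so the split depended on the scaling. For the 45 tested members other than Hk2 the median was 0.16 and the calls were 0.

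By level per kb, Mdh1, Ldha and Aldoa led the tested members in both groups. Eno1 could not be ranked, and the places of Gapdh, Pgk1 and Pgam1 are uncertain because of their shared stretches. Mdh1 was at 194 ± 79.3 CPM per kb in knockouts and 140 ± 8.38 in controls, Ldha at 164 ± 16.6 and 114 ± 29.0 CPM per kb in knockouts and controls, and Aldoa at 131 ± 3.93 and 107 ± 11.3 CPM per kb in knockouts and controls. In controls the neighbours Ldha and Aldoa lay within their spread. Idh1 ranked 10 in knockouts and 19 in controls, and Slc16a3 was the lowest tested member in both groups.

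Isozyme makeup was computed for 11 of 12 families, enolase being left out because Eno1 was listed at 0. In 5 families the shares of knockout and control libraries did not overlap, among them glucose transporters, hexokinases, NADP-dependent isocitrate dehydrogenases and the beta subunits of succinyl-CoA synthetase. Each had an exact two-sided permutation p of 0.1, the smallest possible, and an adjusted p of 0.24 over the 12 families, in which enolase entered with a p of 1, so none passed. Idh1 gave 61.2 ± 2.90% of the Idh1 and Idh2 level in knockouts and 52.9 ± 2.80% in controls. Suclg2 gave 20.7 ± 2.09% of the beta subunit level in knockouts and 30.0 ± 2.33% in controls. The Pfkl, Aldoa, Ldha, Slc16a1, Pdk4 and Mdh1 shares overlapped, with Ldha at 84.8 ± 2.24% of lactate dehydrogenase in knockouts and 89.5 ± 6.58% in controls and Mdh1 at 81.3 ± 3.76% of malate dehydrogenase in knockouts and 79.1 ± 1.41% in controls.

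**Figure D5:**
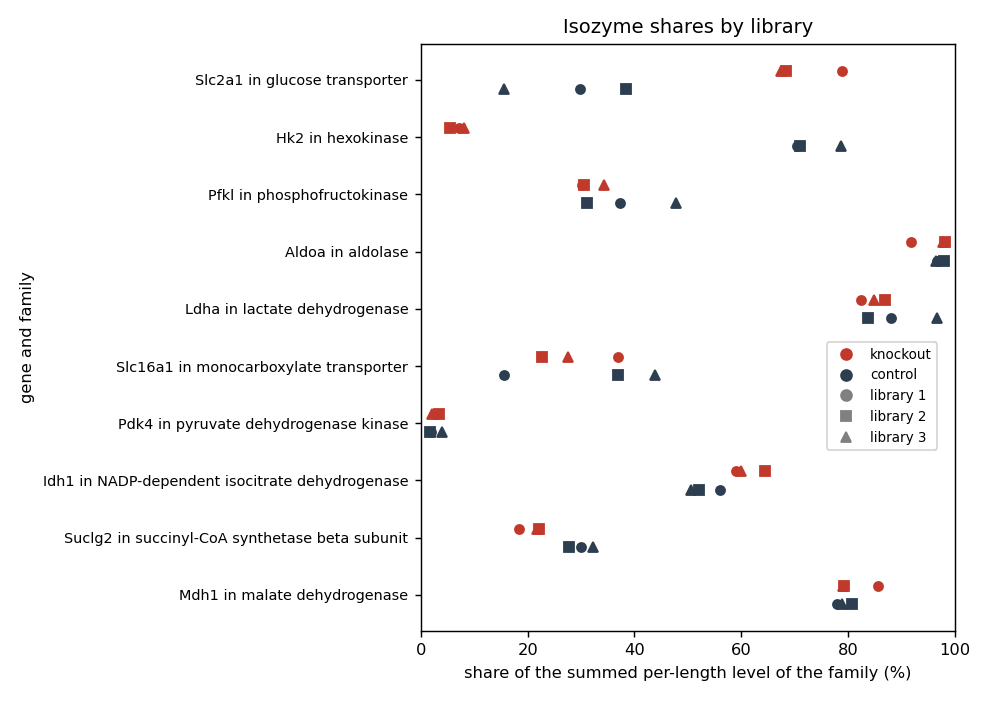
Share of each isozyme family's summed per-length level given by the named gene, in percent, with 1 point per library and the knockout row above the control row of each family. Of the families computed, 10 are drawn. Hk2 gives 5.46 to 8.13% of hexokinase in knockouts and 70.5 to 78.7% in controls; the other families drawn shift by less, with Slc2a1 among glucose transporters next.

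The surrounding pathways were read from 70 further genes in 9 lists, of which 59 were tested. Slc2a12 and Slc37a4 were the 2 called lower (3.39%, beside 4.66% of all tested genes), and 0 were called higher. At an unadjusted p under 0.05 there were 12 (20.3%, beside 22.1% of all tested genes), and DESeq2 called 4 higher, beside 420 of 15075 genes over the whole table. The 4 with the smallest p on the higher side were Me1, Got1, Me3 and Pgls, and none passed. Me1, the cytosolic malic enzyme that yields NADPH, was at 64.6, 54.2 and 45.2 CPM in knockouts and at 30.0, 28.0 and 14.8 CPM in controls (log2 fold change 1.17 ± 0.29 SE, edgeR adjusted p = 0.0655), with 23.1% of its stretches shared. Got1, the cytosolic aspartate aminotransferase, was at 83.4, 53.8 and 67.1 CPM in knockouts and at 44.7, 39.0 and 24.7 CPM in controls (log2 fold change 0.91 ± 0.26 SE, adjusted p = 0.104). Me3, a mitochondrial malic enzyme, was at 2.07 to 2.48 CPM in knockouts and 0.752 to 1.32 CPM in controls (adjusted p = 0.126). Pgls, an enzyme of the oxidative pentose phosphate pathway, was at 139, 79.4 and 56.6 CPM in knockouts and at 46.0, 48.8 and 43.9 CPM in controls (adjusted p = 0.131).

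None of the other lists had a call: 0 of 7 pentose phosphate genes, 0 of 8 in gluconeogenesis and anaplerosis, 0 of 7 in pyruvate entry, 0 of 10 tested in citrate supply and use, 0 of 8 tested among other glycolytic isozymes and regulators, 0 of 2 tested glucose-phosphorylating enzymes, 0 of 5 other cycle and 2-hydroxyglutarate enzymes, and 0 of 5 transcriptional regulators. Among the regulators, Hif1a, the hypoxia factor known to induce glycolytic genes, had a log2 fold change of -0.06 (adjusted p = 0.832), and Myc had 0.04 (adjusted p = 0.903). Ppargc1a, the coactivator known for mitochondrial biogenesis, was at 4.96, 5.68 and 3.22 CPM in knockouts and at 9.86, 6.96 and 10.5 CPM in controls (log2 fold change -0.98 ± 0.31 SE, edgeR adjusted p = 0.132). Atf4, the factor in the title of the series, was at 542, 388 and 368 CPM in knockouts and at 194, 221 and 108 CPM in controls (log2 fold change 1.31 ± 0.31 SE, adjusted p = 0.0585).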

How the data were processed

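Polyadenylated RNA of 6 prostate samples was sequenced as single 75-base reads from strand-preserving libraries, per the labels' protocols. The authors deposited 1 table of raw whole-number read counts per gene symbol, with no normalization. STAR, DESeq2 and mm10 are named in the submitters' processing notes, without versions. Which program counted reads, with which annotation and strand rule, is not given in the sources used here. Reads of overlapping or antisense genes may therefore be mixed. Groups came from the genotype label, and 0 columns were left unmapped.

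The counts were fitted with edgeR 4.0.16 in R 4.3.3: expression filter with a minimum count of 10 (13762 genes kept), TMM factors, quasi-likelihood F test of knockout over control without covariates, and Benjamini-Hochberg adjustment over all tested genes with a threshold of 0.05. CPM are scaled by TMM factors, and standard errors are the fold change divided by the root of its F value. The biological coefficient of variation was 32.5%. Levels per kb used exon unions of GENCODE M21 (GRCm38, which mm10 is built from), in which all 47 symbols were found. Isozyme shares were tested with scipy 1.17.1. Intervals of read shares are exact binomial and cover counting error only, since reads carry no molecular identifiers. Shared stretches were 75-base words found in transcripts of other genes on either strand. The test was checked on simulated counts.

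The members, lists and motifs were chosen with earlier results of these data known. Values in every library are given for members past the threshold, hexokinases, pyruvate dehydrogenase kinases, citrate steps and the 4 members with the smallest p in each direction, and likewise for the other pathway genes. Atf4, Sqstm1, Eno1b, Hif1a and Myc were named outside this rule, as were values per library of members that a single library decides. The alternatives were scaling by DESeq2 size factors, by upper quartiles or by library size only, testing without a filter or with 1 CPM required in 3 libraries, limma-voom (limma 3.58.1), DESeq2 1.42.0, a threshold of 0.10, leaving out each library in turn, and leaving out control 3 and knockout 1 together. Some genes of these pathways, and results that rest on them, are not reported here.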

Additional observations from a re-analysis of the deposited data

How the results depend on the processing

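Hk2 was called lower in all 14 alternatives at the threshold of 0.05, with log2 fold changes of -6.04 to -5.16, and Slc2a12 in all 14 as well. The count of members called higher was 0, and it was 1 (Idh1) with upper-quartile factors, with DESeq2, at a threshold of 0.10 and without control 3 and knockout 1. The count of other pathway genes called higher was 0, but it was 4 with DESeq2 (Pck2, Got1, Pgls and Me1), 1 at a threshold of 0.10 (Me1) and 2 without control 3 and knockout 1 (Slc25a13 and Me1). The count called lower was 2. It was 3 with DESeq2 and at a threshold of 0.10, where Pdp2 was added (adjusted p = 0.0162 with DESeq2), 1 to 2 with each library left out, and 1 without knockout 2 or knockout 3, where Slc37a4 was lost. The difference in Hk2 share was -61.4 percentage points without division by length and -56.6 points with the longest transcript's length. The number of isozyme families without overlap was 5 to 8 with a library left out, 8 being without control 2. Leaving out a library can only keep or raise this number, so it does not check how stable the count is. The median difference over citrate-producing genes was -0.067 when scaled by library size only. That scaling moved the median log2 fold change of all genes to -0.10, against 0.03 with TMM factors. Of 46 tested members, 36 kept the sign of their log2 fold change in all 15 alternatives and 10 did not, the largest of these being Sdhc at 0.46. The cause of these changes was not tested. Over all genes, 57 were called higher and 641 lower by edgeR, and 420 higher and 1162 lower by DESeq2. With upper-quartile factors 64 were called higher and 550 lower, and 196 higher and 994 lower at a threshold of 0.10. Without control 3 and knockout 1 together, 367 of 14024 genes were called higher and 862 lower. No paired analysis was possible because the labels give the groups no shared replicate numbers, and the numbers used here only follow the order of the samples. Hk2 in knockouts rests on 27 to 109 reads, which limits the precision of its fold change.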

Other observations

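Some genes of sugar and citrate metabolism had 1 library far above or below the rest. They were chosen after their values were seen and are given as values only. Pklr, the pyruvate kinase of liver and red cells, was at 1.80, 0.124 and 0 CPM in knockout 1, 2 and 3 and at 0.098, 0 and 0.068 CPM in control 1, 2 and 3. Pck1, the cytosolic gluconeogenic enzyme of liver, kidney and fat, was at 22.8, 0.083 and 3.14 CPM in knockouts and at 1.42, 0.192 and 89.7 CPM in controls. The adipocyte markers summed to 11.9, 4.44 and 63.7 CPM in knockouts and to 28.0, 24.7 and 1094 CPM in controls, and their part in the Pck1 values was not tested.

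Fbp1, the gluconeogenic fructose bisphosphatase, was at 28.0, 22.1 and 31.1 CPM in knockouts and at 18.5 and 11.7 CPM in control 1 and 2, and it was listed at 0 in control 3. Slc25a13, the mitochondrial aspartate-glutamate carrier citrin, was at 41.0, 45.9 and 44.0 CPM in knockouts and at 28.2, 23.4 and 3.49 CPM in controls. Neither passed the edgeR test (adjusted p = 0.462 for Fbp1 and 0.276 for Slc25a13). Control 3 was the lowest library for both, as it was for Ldhb and Idh1. The summed dorsolateral and anterior secretory markers were lowest in that library too, though Msmb, 1 of these 4, was highest there, and their part in these values was not tested.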
